A study of Mus musculus with 12 samples.

Results

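The Serpina genes examined here are 10 members of the clade A serpins that mouse liver secretes into plasma: Serpina1a, Serpina1b, Serpina1c, Serpina1d, Serpina1e, Serpina3k, Serpina3m, Serpina3n, Serpina6 and Serpina7. They were chosen by symbol from the 48795 gene rows of the count table, which holds 19 other Serpina rows, and all 10 passed the filter on low counts. Liver RNA came from 12 female mice aged 4 months on normal chow, littermates matched for age and sex, in 4 groups of 3: Nts+/+ fed (mice 254, 257 and 323), Nts+/+ fasted (265, 282 and 322), Nts-/- fed (277, 303 and 319) and Nts-/- fasted (284, 290 and 295). Fed mice ate ad libitum, fasted mice went without food for 22 h, and the Nts-/- mice, bred from Nts+/- parents, are whole-body knockouts, so that a difference cannot be assigned to the liver itself. Each library was 1 mouse and held between 21999656 and 45273081 expected counts.

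The count of Nts itself went against the genotype labels. Nts, the gene of the gut peptide neurotensin, had 0 counts in all 6 libraries labelled Nts+/+, where a count of 0 still allows up to 3 counts. In the libraries labelled Nts-/- it had 46, 40 and 15 counts when fed and 12, 4 and 18 when fasted. The groups are therefore named by their labels throughout, and an exchange of the labels would turn the sign of every genotype difference given below. Whether labels were exchanged, or the knockout allele keeps the exons that were counted, was not tested. The tissue label held: 9 hepatocyte markers were in the table and together reached 113900 to 155300 CPM (counts scaled to the size of the library) in every group.

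Serpins are suicide inhibitors. The protease cuts an exposed reactive centre loop and is trapped by the serpin, and both are cleared. Hepatocytes make most of the serpins in blood. Serpina1a to Serpina1e are the mouse copies of alpha-1 antitrypsin, the main plasma inhibitor of neutrophil elastase, which is a single gene in humans. Serpina3k, Serpina3m and Serpina3n belong to the expanded mouse family related to alpha-1 antichymotrypsin, and Serpina3n inhibits granzyme B and cathepsin G. Serpina6 (corticosteroid-binding globulin) and Serpina7 (thyroxine-binding globulin) have the serpin fold but carry cortisol or corticosterone and thyroid hormone instead of trapping proteases.

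In the coordinates of the deposited table (GRCm38), 28 Serpina rows lie within chr12:103614786-104414329, a stretch of 799.5 kb with 14 rows of other genes, and Serpina7 lies apart at chrX:139079257-139085236. Serpina1a to Serpina1e are so alike that the way reads are shared out among them bears on every value of theirs. In the GENCODE vM39 canonical transcripts each of the 5 has 1239 coding bases, and any 2 of them match at 96.3% to 98.5% of these bases (10 pairs). Only 86 of the 1239 aligned positions differ in any copy, and 18 of those 86 fall into 60 bases, coding bases 1101 to 1160, which encode the reactive centre loop. These 60 bases are shown because they are where the copies differ most and where the proteins meet proteases; capitals mark the 18 positions at which the copies differ.
Serpina1a: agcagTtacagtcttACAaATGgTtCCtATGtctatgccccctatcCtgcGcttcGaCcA
Serpina1b: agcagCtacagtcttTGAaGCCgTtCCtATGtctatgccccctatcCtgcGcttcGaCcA
Serpina1c: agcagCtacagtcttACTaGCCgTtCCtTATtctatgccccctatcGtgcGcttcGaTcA
Serpina1d: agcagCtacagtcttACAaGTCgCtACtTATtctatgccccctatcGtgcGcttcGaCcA
Serpina1e: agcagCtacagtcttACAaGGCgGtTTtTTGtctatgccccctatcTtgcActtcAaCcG

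Of the windows of 50 bases in each canonical transcript, 26.6% in Serpina1a and 24.9% in Serpina1c occur in no transcript of another gene of that annotation, which is on a later genome build than the counts. The share is 56.4% in Serpina1b, 55.7% in Serpina1d and 62.4% in Serpina1e. Serpina1a and Serpina1c are each other's closest gene, with 62.7% of the Serpina1a windows and 70.1% of the Serpina1c windows present in the other. The unique share depends on the length of the window. With windows of 100 bases it was 48.6% in Serpina1a and 40.5% in Serpina1c. It was then 75.3% in Serpina1b, 76.0% in Serpina1d and 83.2% in Serpina1e. The counts of these copies are therefore estimates that depend on how reads were divided, and the single values of Serpina1a and Serpina1c are the most exposed. The rows of Serpina1b and Serpina1d also overlap, since Serpina1b spans chr12:103728156-103830373 and Serpina1d chr12:103763594-103773592, and the rows of Serpina3k and Serpina3m start at the same base. In Serpina3k, Serpina3m and Serpina3n, 93.4%, 90.4% and 93.7% of the windows of 50 bases were unique. In Serpina6 and Serpina7, 2904 of 2905 and 2336 of 2336 of them were.

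The stretches upstream of the 5 copies are alike too. RefSeq promoter windows (GRCm38.p6, 250 bases before the start to 50 after) were at hand for 7 of the 10 members. Each Serpina1 copy has the letters GTTAAT, part of the site of the liver factor HNF1, upstream of its start, and the 96 bases around it are shown because Serpina1c passed the fasting test given below and the other 4 copies did not. They lie on the minus strand at Serpina1a chr12:103863625-103863720, Serpina1b chr12:103738200-103738295, Serpina1c chr12:103904962-103905057, Serpina1d chr12:103773634-103773729 and Serpina1e chr12:103956960-103957055. Capitals mark GTTAAT.
Serpina1a: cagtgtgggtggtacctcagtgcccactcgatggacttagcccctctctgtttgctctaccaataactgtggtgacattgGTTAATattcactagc
Serpina1b: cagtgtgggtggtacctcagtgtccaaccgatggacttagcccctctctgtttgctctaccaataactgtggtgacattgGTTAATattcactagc
Serpina1c: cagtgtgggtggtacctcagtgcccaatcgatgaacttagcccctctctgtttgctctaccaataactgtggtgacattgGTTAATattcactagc
Serpina1d: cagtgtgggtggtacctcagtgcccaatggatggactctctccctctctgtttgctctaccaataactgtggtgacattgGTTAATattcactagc
Serpina1e: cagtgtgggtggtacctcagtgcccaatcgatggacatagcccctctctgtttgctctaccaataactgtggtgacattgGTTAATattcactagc

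Of these 96 bases, 86 are the same in all 5 copies, and any 2 copies match at 92.7% to 97.9% of them. Searched on both strands over the whole window, GTTAAT occurred in 6 of the 7 member genes, the 5 Serpina1 copies and Serpina7, and in 7.1% of all 32851 promoter windows. AGAACA, part of a glucocorticoid receptor site, occurred in the 5 copies and Serpina3n, and in 19.0% of all windows. TTGCNNAA, a short form of the C/EBP site, occurred in Serpina1a, Serpina1b, Serpina1d, Serpina1e and Serpina7, and in 10.8% of all windows. These letters are not in the window of Serpina1c. In Serpina1a they lie after the start, so neither Serpina1a nor Serpina1c has them upstream of its start. TTCNNNGAA, the STAT core, was found in 0 of the 7 member genes and in 8.3% of all windows. Upstream of the starts, matches of different motifs did not overlap. A match is a match of letters and not a site shown to be bound.

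Fasting moved 3 of the 10 members in the same directions in both genotype labels. In the Nts+/+ livers, Serpina1c (1.92-fold lower) and Serpina6 (4.73-fold lower) fell and Serpina3n (2.24-fold higher) rose. In the livers labelled Nts-/-, Serpina1c fell 1.74-fold, Serpina6 fell 4.39-fold and Serpina3n rose 2.27-fold. Calls are those of edgeR's quasi-likelihood test at a Benjamini-Hochberg adjusted p under 0.05 over 13812 genes. The 3 calls stand against 18.1% of all genes tested in Nts+/+ mice (9.19% lower and 8.91% higher in the fasted) and 16.8% in the mice labelled Nts-/- (9.14% lower and 7.7% higher), and nothing particular to the list is read from a count of 3 of 10. At an unadjusted p under 0.05 there were 5 members in each genotype, against 4489 of the 13812 genes in Nts+/+ and 4383 in Nts-/- mice. The median log2 fold change over the 10 members was -0.23 in Nts+/+ and -0.08 in Nts-/- mice, against -0.0032 and -0.011 over all genes. Serpina1c, Serpina3n and Serpina6 were also the 3 members whose 6 fasted and 6 fed mice did not overlap, as was so for 15.9% of all genes. In such bulk tissue, fewer cells of a type and less RNA per cell cannot be told apart. The hepatocyte marker sum was 113900 to 142500 CPM in fed and 130300 to 155300 CPM in fasted livers. Of its 9 markers, 3 rose and 2 fell with fasting in Nts+/+ mice, and 3 rose and 1 fell in Nts-/- mice. The sum therefore does not measure hepatocyte content apart from fasting. Not all markers of other cells moved alike. The sum of the 6 cholangiocyte markers was lower in fasted livers without overlap. It was 33.44 to 49.68 CPM in fed and 13.72 to 29.57 CPM in fasted livers. Of these 6, 4 passed the filter, and 1 fell and 0 rose in each genotype. The sum of the 8 sinusoidal endothelium markers was lower without overlap too, at 208.1 to 299.7 (fed) and 173.4 to 204.3 CPM (fasted). Of these 8, 3 fell and 1 rose in Nts+/+ mice and 3 fell and 0 rose in Nts-/- mice. The sums of Kupffer cell, stellate cell, lymphocyte and neutrophil markers overlapped between fed and fasted livers. The 8 exocrine pancreas markers, of which 4 were at 0 in every group, summed to 7.689 to 13.73 CPM in fed and 3.088 to 5.635 CPM in fasted livers. The part of these cells in the Serpina values was not tested.

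**Figure D1:**
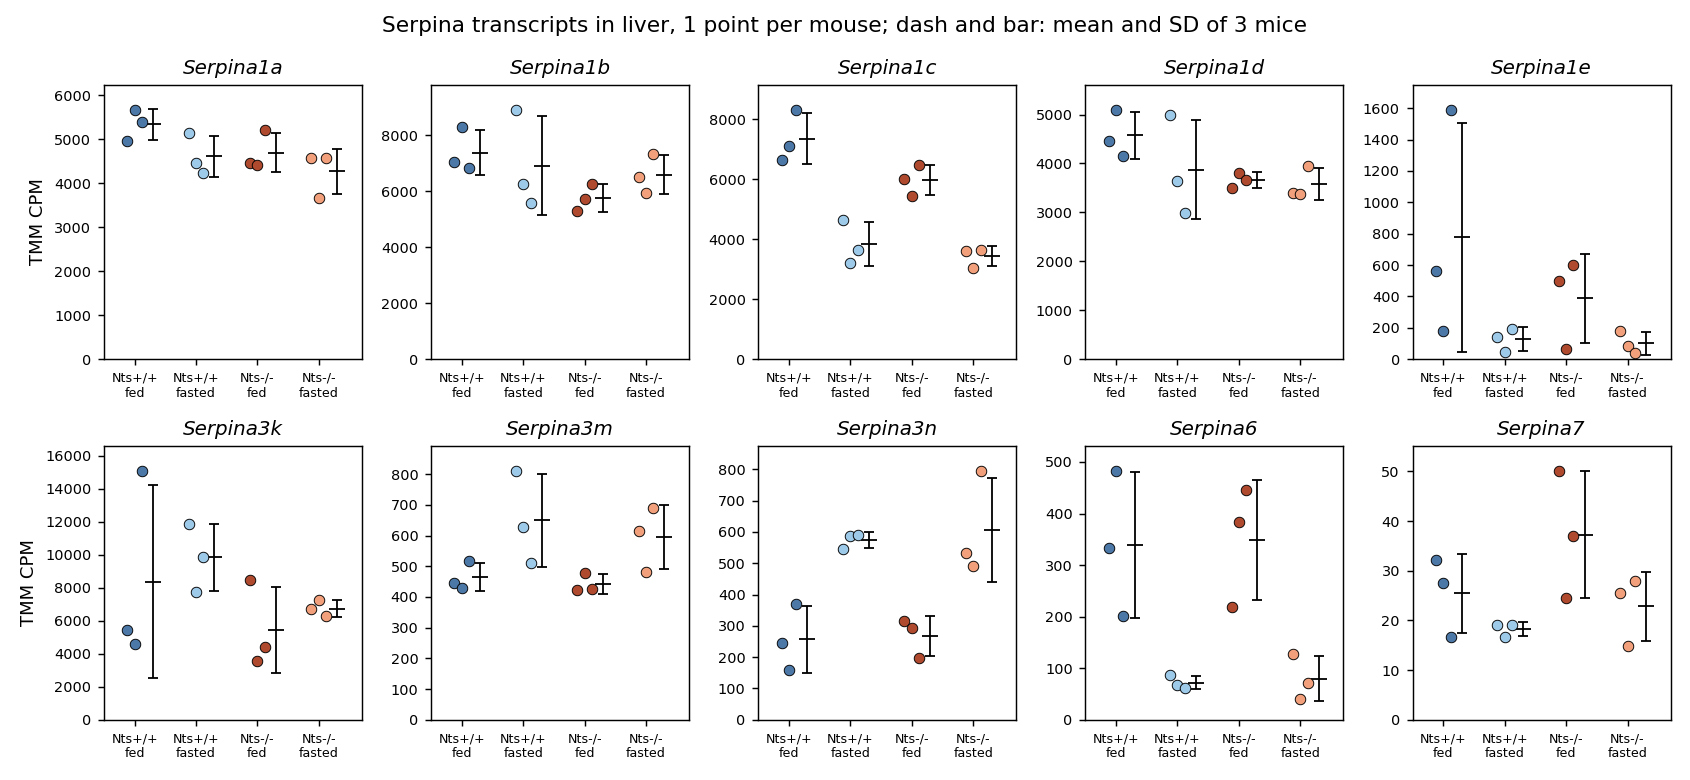
Level of each Serpina gene (TMM CPM, linear axis from 0) in the 4 groups, with 1 point per mouse and the mean ± SD of 3 mice as dash and bar. The 6 fasted mice lie below the 6 fed mice for Serpina1c and Serpina6 and above them for Serpina3n, while the other panels overlap.

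Levels are given as CPM scaled by edgeR's trimmed mean of M values (TMM), with the mice in the order listed above. As group means, the 5 alpha-1 antitrypsin copies together came to 1.798% to 2.54% of the TMM-scaled library size. Their sum was 25430 ± 1519 CPM (SD, n = 3) in fed and 19350 ± 3896 in fasted Nts+/+ mice, and 20480 ± 1515 in fed and 17980 ± 1710 in fasted mice labelled Nts-/-. The 4 fasting and genotype differences of the sum did not pass the test: the log2 fold change on fasting was -0.39 ± 0.17 (SE; adjusted p = 0.119, edgeR) in Nts+/+ and -0.19 ± 0.17 (adjusted p = 0.482) in Nts-/- mice. The Nts+/+ value passed without mouse 265, at -0.56 with an adjusted p of 0.0356, and with scaling by library totals alone, at -0.47 with an adjusted p of 0.0365.

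Serpina1c was the copy whose fall passed the test in both genotypes. It had 6660, 7103 and 8322 CPM in the fed and 4641, 3215 and 3635 CPM in the fasted Nts+/+ mice. In the mice labelled Nts-/- it had 6019, 5445 and 6475 CPM when fed and 3619, 3049 and 3651 CPM when fasted. Every fasted mouse lay below every fed mouse. The log2 fold change was -0.94 ± 0.17 (adjusted p = 0.00228, edgeR) in Nts+/+ and -0.80 ± 0.17 (adjusted p = 0.00608) in Nts-/- mice, and the 2 responses differed by 0.14 ± 0.24 (adjusted p = 0.956).

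The 3 other abundant copies did not pass the test. Serpina1a had 4971, 5669 and 5383 CPM in fed and 5140, 4469 and 4230 CPM in fasted Nts+/+ mice, and 4469, 4416 and 5207 against 4572, 3674 and 4564 CPM in the mice labelled Nts-/-. The fed and fasted values overlapped in both genotypes, with log2 fold changes of -0.21 ± 0.15 (adjusted p = 0.352) and -0.14 ± 0.15 (adjusted p = 0.571). Serpina1b had 7033, 8290 and 6824 CPM in fed and 8907, 6244 and 5579 CPM in fasted Nts+/+ mice, and 5293, 5718 and 6264 against 6510, 5948 and 7318 CPM in the mice labelled Nts-/-. Its highest fasted Nts+/+ mouse, 265, was above all fed ones and its lowest below them, and the log2 fold changes were -0.10 ± 0.18 (95% interval -0.49 to 0.29) and 0.20 ± 0.18 (-0.20 to 0.59). Serpina1d had 4461, 5096 and 4158 CPM in fed and 4981, 3634 and 2996 CPM in fasted Nts+/+ mice, and 3490, 3813 and 3671 against 3400, 3385 and 3948 CPM in the mice labelled Nts-/-. Its fed and fasted values overlapped too, with log2 fold changes of -0.24 ± 0.18 (-0.62 to 0.14) and -0.03 ± 0.18 (-0.41 to 0.35).

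As shares of the summed copies, Serpina1c made up 28.1%, 27.0% and 31.7% in the fed and 19.5%, 18.3% and 21.9% in the fasted Nts+/+ mice. The shares were 30.4%, 28.0% and 29.1% when fed and 19.8%, 18.9% and 18.7% when fasted in the mice labelled Nts-/-. Serpina1b took the larger part in fasted mice, from 33.5% to 37.5%, against 26.0% to 31.5% in fed ones. The shares of Serpina1a ranged from 20.5% to 25.4% and those of Serpina1d from 15.8% to 21.0% over the 12 mice. The shares add up to the whole, so they are not independent of each other, and they are given without a test.

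**Figure D2:**
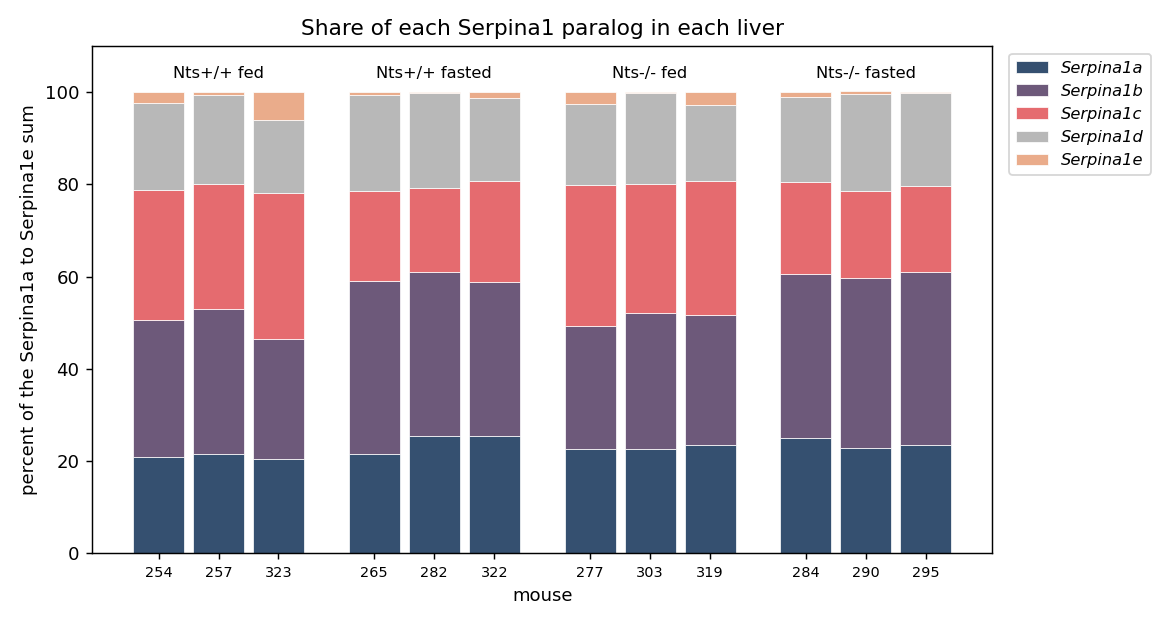
Share of each Serpina1 copy in the summed Serpina1a to Serpina1e level (percent of TMM CPM), 1 stacked bar per mouse, in the 4 groups. The Serpina1c band spans 27.0% to 31.7% in the 6 fed mice and 18.3% to 21.9% in the 6 fasted mice.

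Serpina1e was the scarce and variable copy. Fed Nts+/+ mice had 560, 180 and 1590 CPM and fasted ones 142, 43.7 and 192 CPM, while fed mice labelled Nts-/- had 496, 61.2 and 602 CPM and fasted ones 182, 84.9 and 35.8 CPM. Mouse 257 among the fed Nts+/+ mice and mouse 303 among the fed mice labelled Nts-/- lay within the fasted range, and mouse 323 was the highest of all 12. The log2 fold changes of -2.63 ± 1.11 (adjusted p = 0.142, edgeR) and -1.94 ± 1.09 (adjusted p = 0.266) were large but did not pass the test, with 95% intervals from -5.17 to -0.08 and from -4.42 to 0.54. With DESeq2 the Nts+/+ value, -2.62, passed at an adjusted p of 0.0428.

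Serpina3n rose with fasting. It had 244, 158 and 368 CPM in fed and 546, 586 and 592 CPM in fasted Nts+/+ mice, a log2 fold change of 1.16 ± 0.28 (adjusted p = 0.0147, edgeR). In the mice labelled Nts-/- it had 316, 292 and 196 CPM when fed and 534, 491 and 796 CPM when fasted, a change of 1.18 ± 0.28 (adjusted p = 0.0142). The lowest fasted mouse, at 491 CPM, was above the highest fed mouse, at 368 CPM. The call did not hold in every fit. Without mouse 254 or mouse 282 the Nts+/+ value was 1.13 or 1.15 and did not pass (adjusted p = 0.0615 or 0.0505, edgeR). Over all genes these 2 fits called 1326 and 1224 genes, against 2501 with all mice. Without mouse 295 the Nts-/- value was 0.94 and did not pass (adjusted p = 0.0507, edgeR), with 1731 genes called against 2326. The 200 bases before its RefSeq start, on the plus strand at chr12:104406508-104406707 (GRCm38.p6), are shown because it is the member that rose; capitals mark AGAACA.
Serpina3n: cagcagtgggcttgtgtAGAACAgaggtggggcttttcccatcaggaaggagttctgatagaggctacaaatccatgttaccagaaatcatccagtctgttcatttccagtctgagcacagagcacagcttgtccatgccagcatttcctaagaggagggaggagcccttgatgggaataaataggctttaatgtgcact

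Its closest relatives did not pass the test. Serpina3m had 445, 430 and 517 CPM in fed and 811, 628 and 510 CPM in fasted Nts+/+ mice, and 422, 479 and 427 against 615, 482 and 688 CPM in the mice labelled Nts-/-. Its log2 fold changes were 0.49 ± 0.18 (adjusted p = 0.0758, edgeR) and 0.43 ± 0.18 (adjusted p = 0.117), and both had an unadjusted p under 0.05. In Nts+/+ mice it passed with DESeq2 (0.49) and without mouse 322 (0.63). Serpina3k, a kallikrein-binding serpin, had 5417, 4566 and 15090 CPM in fed and 11840, 7767 and 9888 CPM in fasted Nts+/+ mice. In the mice labelled Nts-/- it had 8436, 3553 and 4386 CPM when fed and 6680, 7252 and 6273 CPM when fasted. Fed mouse 323 was the highest of the 12 and fed mouse 303 the lowest, so that the log2 fold changes of 0.23 ± 0.44 and 0.30 ± 0.44 (adjusted p = 0.754 and 0.687) carried 95% intervals from -0.73 to 1.202 and from -0.66 to 1.27. Without mouse 323 the Nts+/+ value was 0.98 and still did not pass.

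Of the hormone carriers, Serpina6 fell and Serpina7 had wide values. Serpina6 had 334, 483 and 201 CPM in fed and 86.1, 67.2 and 62.0 CPM in fasted Nts+/+ mice, a log2 fold change of -2.24 ± 0.45 (adjusted p = 0.00849, edgeR). In the mice labelled Nts-/- it had 218, 383 and 445 CPM when fed and 127, 40.7 and 70.5 CPM when fasted, a change of -2.14 ± 0.45 (adjusted p = 0.0107). The highest fasted mouse, 284 at 127 CPM, was below the lowest fed mouse, 323 at 201 CPM. The call held in all 17 other fits, with values between -2.51 and -1.90 in Nts+/+ and between -2.64 and -1.82 in Nts-/- mice.

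Serpina7, whose protein carries thyroxine, was the scarcest member. It had 32.2, 27.6 and 16.7 CPM in fed and 19.0, 16.6 and 19.1 CPM in fasted Nts+/+ mice, and 50.2, 24.6 and 37.1 against 25.6, 14.9 and 27.9 CPM in the mice labelled Nts-/-. Fed and fasted mice overlapped in both genotypes. The log2 fold changes were -0.48 ± 0.31 (adjusted p = 0.305) and -0.71 ± 0.30 (adjusted p = 0.136), the second with an unadjusted p under 0.05.

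**Figure D3:**
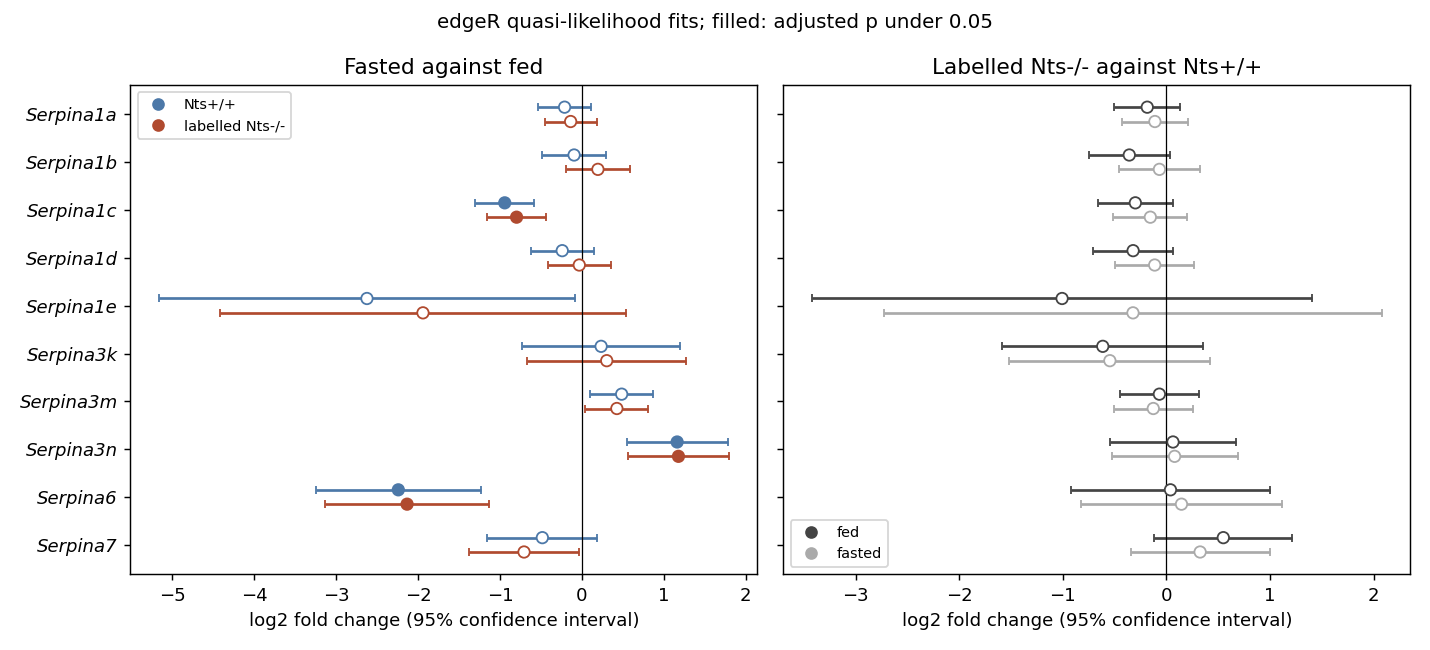
Log2 fold change of each Serpina gene with its 95% confidence interval, for fasted against fed mice (left, by genotype label) and for libraries labelled Nts-/- against Nts+/+ (right, by feeding state); filled points passed an adjusted p of 0.05. Serpina1c, Serpina3n and Serpina6 are filled for fasting in both genotypes, and no genotype point is filled.

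No member passed the test between genotype labels. Among all 13812 genes the edgeR test called 0 genes in fed mice, 0 in fasted mice and 0 for the difference of the fasting responses (a background of 0% in each), with 876, 685 and 663 genes at an unadjusted p under 0.05 and 8, 4 and 3 genes called by DESeq2. None of the 10 members was among those called by DESeq2, and 0 members had an unadjusted p under 0.05 in any of these 3 comparisons. The median log2 fold change over the members was -0.24 in fed and -0.11 in fasted mice, against 0.010 and -0.0087 over all genes.

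In fed mice, Serpina1b, Serpina1c and Serpina1d were lower in all 3 libraries labelled Nts-/- than in any labelled Nts+/+, as the values above show; such separation was seen in 10.7% of all genes. The log2 fold changes were -0.36 ± 0.18 for Serpina1b, -0.30 ± 0.17 for Serpina1c and -0.32 ± 0.18 for Serpina1d, with adjusted p = 0.777, 0.792 and 0.792 (edgeR), and the sum of the 5 copies differed by -0.31 ± 0.17 (adjusted p = 0.781). Since these copies share reads, they are not 3 separate observations. Kupffer cell markers moved in the same way: the sum of the 10 on the list was 655 to 703.8 CPM in fed Nts+/+ livers and 425.2 to 556 CPM in fed livers labelled Nts-/-, and its part in these values was not tested. In fasted mice, Serpina3k was the member whose genotype labels did not overlap, lower in the libraries labelled Nts-/-, against 12.2% of all genes, with -0.55 ± 0.44 (adjusted p = 0.917). The sum of the 5 copies differed by -0.11 ± 0.17 in fasted mice (adjusted p = 0.958). Serpina7 had 0.55 ± 0.30 in fed mice (adjusted p = 0.793), with overlapping values.

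Levels of different genes were set side by side per kilobase of canonical transcript (GENCODE vM39). In fed Nts+/+ mice the order was Serpina1c (5285 CPM per kb), Serpina1b (4658), Serpina1a (3225), Serpina1d (2720), Serpina3k (1973), Serpina1e (556), Serpina3m (133), Serpina6 (115), Serpina3n (114) and Serpina7 (10.7). Neighbours in that order overlapped over the 3 mice except Serpina1b and Serpina1a, and Serpina3n and Serpina7. In fasted Nts+/+ mice Serpina1b led with 4360 CPM per kb, above every value of Serpina1a (2786), which overlapped with Serpina1c (2750). Serpina3n (255) stood above Serpina3m (186), Serpina1e (90.0) and Serpina6 (24.3) there, without overlap between neighbours. The same first places, Serpina1c when fed and Serpina1b when fasted, were held in the mice labelled Nts-/-, with 4293 and 4159 CPM per kb. In the fed ones Serpina1c overlapped with Serpina1b (3633). The lead of Serpina1c over Serpina1b in fed Nts+/+ mice depends on transcript length. Per kilobase of coding sequence Serpina1c had 5942 and Serpina1b 5958 CPM per kb there. In fed mice labelled Nts-/- the values on that scale were 4826 and 4648. The place of Serpina3k depends on its length: the canonical transcript has 4235 bases, of which 1254 are coding, and per kilobase of coding sequence its 6665 CPM per kb put it first in fed Nts+/+ mice, overlapping with Serpina1b. On that scale it also came before Serpina1b in fasted mice, with 7840 against 5577 CPM per kb in Nts+/+ mice and 5371 against 5320 in mice labelled Nts-/-, again with overlapping values.

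The 7 other Serpina genes that passed the filter included 3 that fell with fasting in Nts+/+ mice, Serpina10, Serpina9 and Serpina4-ps1. In mice labelled Nts-/- 2 fell, Serpina9 and Serpina4-ps1, and 0 rose in either genotype. Over all genes tested, 18.1% were called in Nts+/+ mice and 16.8% in mice labelled Nts-/-. Nothing particular to this list is read from its counts. Serpina10, the protein Z-dependent inhibitor of coagulation factor Xa, had 199.1, 187.5 and 247.6 CPM in fed and 125, 131.1 and 138.8 CPM in fasted Nts+/+ mice, a log2 fold change of -0.68 ± 0.17 (adjusted p = 0.0156, edgeR). It had 204.7, 171.4 and 230.7 against 151.5, 109.3 and 171.7 CPM in the mice labelled Nts-/- (-0.49 ± 0.17, adjusted p = 0.0688). Serpina4-ps1, annotated as a pseudogene, had 240, 162 and 347 counts in fed and 5, 5 and 91 in fasted Nts+/+ mice, and 309, 33 and 92 against 1, 3 and 5 counts in the mice labelled Nts-/-. The adjusted p was 0.0388 and 0.0201. Serpina9 was near the limit of detection, with 9, 19 and 13 counts in fed Nts+/+ mice, a single count in the 3 fasted ones, and 6, 2 and 10 against 0, 0 and 0 counts in the mice labelled Nts-/- (adjusted p = 0.00408 and 0.0156), and no fold is given for it. Serpina11, Serpina12 (vaspin), Serpina3f and Serpina3g did not pass in either genotype, with log2 fold changes between -1.86 and 0.20.

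**Figure D4:**
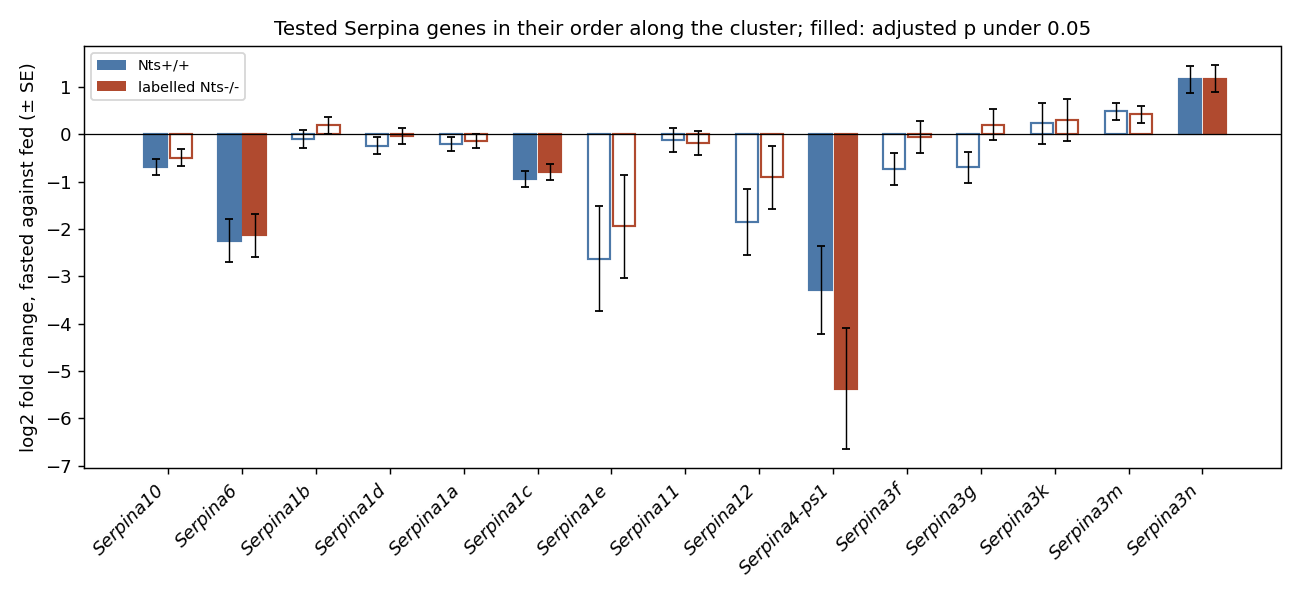
Log2 fold change (± SE) of fasted against fed mice for 15 Serpina genes of the chromosome 12 cluster in their order along the chromosome, for both genotype labels; filled bars passed an adjusted p of 0.05. Serpina6, Serpina1c, Serpina4-ps1 and Serpina3n are filled for both genotypes and Serpina10 for Nts+/+, with Serpina3n the one that rose; Serpina9 is left out because some libraries had 0 counts.

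Serpins of the other clades gave 13 tested genes of 40 rows. Their calls stand against 18.1% of all genes in Nts+/+ mice and 16.8% in mice labelled Nts-/-. In Nts+/+ mice 1 rose and 3 fell; those that fell were Serpinh1 (-1.53 ± 0.20), the collagen chaperone, Serpinf2 (-0.58 ± 0.17), the plasmin inhibitor, and Serpind1 (-0.51 ± 0.16), the thrombin inhibitor heparin cofactor II. In mice labelled Nts-/- only Serpinh1 passed (-1.58 ± 0.20). Serpinh1 is made by collagen-producing cells, and stellate cell markers moved with it: of 8 tested, 3 fell in Nts+/+ and 5 in Nts-/- mice, and their sum went from 236.9 to 263.2 CPM in fed to 196.3 to 220.8 CPM in fasted Nts+/+ livers. In livers labelled Nts-/- the sums overlapped, with 209.6 to 287.4 CPM in fed and 198.3 to 215.8 CPM in fasted ones. The part of those cells in this value was not tested.

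Genes that work beside the hormone carriers moved in both directions. Of 20 tested genes for hormone carriers, receptors and converting enzymes, 3 fell and 1 rose in Nts+/+ mice. In mice labelled Nts-/- 6 fell and 1 rose, and the median log2 fold change of the 20 was -0.27 in Nts+/+ and -0.26 in Nts-/- mice. The share called over all genes was 18.1% in Nts+/+ and 16.8% in Nts-/- mice, and nothing particular to the list is read from these counts. Ttr (transthyretin), another thyroxine carrier made in liver, fell with log2 fold changes of -0.63 ± 0.17 in Nts+/+ and -0.90 ± 0.17 in Nts-/- mice, the order used from here on. Akr1c6, a hydroxysteroid dehydrogenase, fell (-1.46 ± 0.22 and -0.91 ± 0.21), and Srd5a2, a steroid 5-alpha-reductase present at a low level, fell (-2.21 ± 0.52 and -2.44 ± 0.46). Slc16a10, a transporter of thyroid hormone and aromatic amino acids, rose by 0.65 ± 0.16 and 0.75 ± 0.16. Nr3c1, the receptor for the glucocorticoid that Serpina6 carries, named after its values were seen, fell in mice labelled Nts-/- (-0.61 ± 0.15, adjusted p = 0.0144). None of the 20 passed between genotype labels or for the difference of the responses.

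The acute phase proteins had calls in both directions in Nts+/+ mice. Of 22 tested, 3 rose and 6 fell there, while 3 rose and 0 fell in mice labelled Nts-/-. These counts stand against 18.1% of all genes in Nts+/+ and 16.8% in Nts-/- mice, and nothing particular to the list is read from them. Lcn2 (lipocalin 2), Hp (haptoglobin) and Lbp (the lipopolysaccharide-binding protein) rose in both: Lcn2 by 2.78 ± 0.61 and 2.36 ± 0.61, Hp by 0.72 ± 0.22 and 1.06 ± 0.22, and Lbp by 0.56 ± 0.17 and 0.66 ± 0.17 on the log2 scale. Saa2 and Saa4, 2 serum amyloid A genes, fell in Nts+/+ mice (-1.14 ± 0.25 and -1.13 ± 0.29). The difference of the 2 responses passed for 0 of the 22, so a difference between the genotypes is not shown. The 10 neutrophil markers summed to 1.303 to 8.68 CPM over the 12 livers, while the 10 Kupffer markers summed to 655 to 703.8 CPM in fed and 331.4 to 561.2 CPM in fasted Nts+/+ livers. The part of Kupffer cells in these values was not tested.

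The list of transcription factors and signalling genes picked as possible regulators of the cluster had 22 tested. Their action on the cluster was not tested here. In Nts+/+ mice 4 rose and 2 fell, against 18.1% of all genes called. In mice labelled Nts-/- 3 rose and 3 fell, against 16.8% of all genes. Cebpd, a C/EBP factor, rose by 1.35 ± 0.29 and 1.37 ± 0.29, and Il6ra, a chain of the interleukin 6 receptor, by 0.87 ± 0.20 and 0.74 ± 0.20. Ghr, the growth hormone receptor, fell (-0.85 ± 0.15 in both genotypes). Of the 21 genes for folding, export, quality control and uptake of alpha-1 antitrypsin, 1 rose and 1 fell in Nts+/+ mice. In mice labelled Nts-/- 1 rose and 2 fell, against the same shares of all genes. Nothing particular to either list is read from these counts. Edem2, which marks misfolded glycoproteins for degradation, fell (-0.74 ± 0.15 and -0.60 ± 0.15), Edem1 fell in mice labelled Nts-/- (-0.53 ± 0.15), and Sel1l, of the same degradation machinery, rose by 0.61 ± 0.19 in Nts+/+ mice. Derl1, a channel component of that machinery, rose by 0.41 ± 0.13 in mice labelled Nts-/-.

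Of the proteases that Serpina proteins inhibit or bind, 11 of 16 passed the filter. In Nts+/+ mice 3 fell and in mice labelled Nts-/- 1 fell, and 0 rose. The share called over all genes was 18.1% in Nts+/+ and 16.8% in Nts-/- mice, so the counts are not read as a result about proteases. Tmprss6, the liver protease matriptase-2, fell (-0.52 ± 0.14 and -0.59 ± 0.14). Gzma and Gzmb, granzymes of cytotoxic lymphocytes, fell in Nts+/+ mice (-1.45 ± 0.40 and -1.43 ± 0.46). The 8 lymphocyte markers, Gzma among them, summed to 7.045 to 8.023 CPM in fed and 4.46 to 6.536 CPM in fasted Nts+/+ livers, and their part in the granzyme values was not tested.

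Within groups the members did not vary as a block. After the 4 group means were removed, log2 levels over the 12 mice gave a Pearson r of 0.95 for Serpina1b with Serpina1d, whose rows overlap, 0.80 for Serpina1a with Serpina1b and 0.75 for Serpina1a with Serpina1c. Serpina1e went with Serpina3k (r = 0.71), both highest in mouse 323, and Serpina3k ran against Serpina6 (r = -0.62). The tested gene outside the family most like each member by this measure was Alyref2 for Serpina1a (r = 0.94), Ttc36 for Serpina1b (0.95), 1300017J02Rik for Serpina1c (0.96), Aldh7a1 for Serpina1d (0.97), Cyp4f17 for Serpina1e (0.96) and Agpat9 for Serpina3k (0.96). For Serpina3m it was Gcdh (0.96), for Serpina3n 2210408I21Rik (0.96), for Serpina6 Timm22 (0.95) and for Serpina7 Sipa1l3 (0.98). Each of these r values is a maximum over all tested genes in 12 mice that share libraries and scaling, and is a description only.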

How the data were processed

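Liver RNA of 12 mice was measured by RNA-seq. Per the labels and file headers, the deposited file holds expected counts for each gene as written by the authors' pipeline (Ensembl gene rows with symbols and GRCm38 positions), not normalized; the submitters' processing notes name Trimmomatic, RSEM and GRCm38, and no versions, strand setting or annotation release is given in the sources used here. RSEM divides reads that match several genes among them by a model, which bears on the Serpina1 copies. All 12 sample columns were mapped by label.

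Expected counts were rounded to whole numbers, filtered with filterByExpr, scaled by TMM and fitted in edgeR 4.0.16 (R 4.3.3, limma 3.58.1) with the robust quasi-likelihood test over the 4 groups, giving 13812 genes tested and Benjamini-Hochberg adjusted p-values over all of them at a threshold of 0.05. The common biological coefficient of variation was 0.20. The Serpina1a to Serpina1e sum was tested in a second fit, in which 1 summed row took the place of the 5 rows. CPM used no prior count for levels and a prior count of 2 for correlations. Each library is a separate mouse, and precision is limited by 3 mice a group; a count of 0 allows up to 3 counts (counting error only). The pipeline was tested on simulated counts. Alternatives were DESeq2 1.42.0, other scalings, no filter, fits of 2 groups and leaving out each mouse.

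Named genes were every member, other tested Serpina genes, up to 3 genes by smallest p per list and fasting contrast, the gene most like each member, and Nts. The members and lists were chosen with earlier results of these data known. Sequences came from RefSeq promoter windows (GRCm38.p6) and GENCODE vM39 transcripts, and coding sequences were aligned with mafft 7.526; no entry was used for the promoters of Serpina3k, Serpina3m and Serpina6. For the serpins of other clades, the values of 1 gene that passed are not reported here.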

Additional observations from a re-analysis of the deposited data

How the results depend on the processing

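The number of members called on fasting was 3 in each genotype, and the calls of Serpina1c and Serpina6 held in every fit, though a further limit of 1 on the absolute log2 fold change left 2 members in each genotype, without Serpina1c. In Nts+/+ mice DESeq2 called 5, adding Serpina1e and Serpina3m, and leaving out 1 mouse gave 2 to 4; in mice labelled Nts-/- leaving out 1 mouse gave 2 to 3. Over all genes, leaving out 1 mouse gave 1224 to 2770 calls against 2501 in Nts+/+ and 1358 to 2631 against 2326 in mice labelled Nts-/-. Serpina3n was lost without mouse 254 or 282 in Nts+/+ mice and without mouse 295 in mice labelled Nts-/-. Genotype comparisons called 0 members in every fit. The sum of the 5 alpha-1 antitrypsin copies in fasted against fed Nts+/+ mice passed with library totals only (-0.47) and ranged from -0.56 to -0.295 when 1 mouse was left out; for the genotype labels in fasted mice it ranged from -0.20 to 0.065. Examples of signs that turned when 1 mouse was left out, all of values that did not pass, were, on fasting, Serpina1b (-0.31 to 0.039) and Serpina3k (-0.060 to 0.98) in Nts+/+ mice and Serpina1d (-0.11 to 0.0092) in mice labelled Nts-/-, and between genotype labels in fed mice Serpina1e (-1.48 to 0.063) and Serpina3k (-1.07 to 0.13), both by leaving out mouse 323. The cause was not tested. Each of the 50 fold changes of members and comparisons was refitted many times, so 1 fold change can count more than once here. Among values that did not pass, leaving out a mouse turned the sign in 44 refits and kept sign and call in 483. The other fits turned the sign in 4 refits and kept sign and call in 204. No value that passed changed its sign. Scaling by library totals alone moved the median of all genes in the mice labelled Nts-/- on fasting to -0.18 on the log2 scale and that of the difference of responses to -0.12. No paired analysis was possible because the labels give each mouse a number of its own and the groups share none. The 3 mice a group limit the precision to the printed errors, and the division of reads among the 5 copies adds an error that these fits do not cover.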
